A study of Mus musculus with 6 samples.

Results

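The genes described here encode the enzymes of glycolysis, the carriers that move glucose and lactate across membranes, and metabolic genes known to be induced by hypoxia-inducible factor (HIF). They were chosen by name as a list of 36 genes. Of these names, 35 were found as written and 1, Ero1a, was found under its older symbol Ero1l. The name Aldoa belonged to 2 Ensembl genes, so the list covered 37 of the 54532 genes measured. RNA sequencing was done on retinas of mouse pups with oxygen-induced retinopathy, a model in which high oxygen stops retinal vessels from growing and the return to room air is followed by new vessel formation. All pups were placed in 75% ± 2% oxygen on postnatal day 7, together with their mothers. On postnatal day 12 the antagomir group received 1 nmol of a miR-381-3p antagomir in the vitreous, and the control group received 1 nmol of a negative control antagomir (nc). An antagomir is a modified antisense oligonucleotide that binds a microRNA and blocks it. Retinas were collected on postnatal day 17 and gave 3 libraries per group. No strain or sex is stated, nor whether a library is 1 pup or a pool, and no untreated or room-air retinas were analysed here, so the levels below are those of retinopathy retinas in both groups.

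Glycolysis splits glucose into pyruvate, and lactate dehydrogenase converts pyruvate to lactate, which monocarboxylate carriers export. The retina is known for making lactate even when oxygen is present, with photoreceptors as the main users of glucose and Müller glia able to take up or release lactate. HIF is a transcription factor that is broken down when oxygen is available, and under hypoxia it binds a short core motif in the promoters of many glycolytic genes and of genes for autophagy, pH control and collagen modification.

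The antagomir was directed against the mature microRNA below, whose sequence is shown because its seed (bases 2 to 8, in capitals) defines the sites that it can pair with. RefSeq places it in Mir381 on GRCm38.p6 at chr12:109726870-109726891, plus strand, and it is 22 bases long.
mmu-miR-381-3p: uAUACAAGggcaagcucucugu
The complement of the seed, CTTGTAT, was looked for in GENCODE M21 (GRCm38), taking for each gene its longest 3′ UTR. It was present in 5 of the 37 genes (13.5%), and in 1747 of 13192 tested genes with an annotated 3′ UTR (13.2%). The 5 sites are shown with their flanks on the transcript strand, the seed match in capitals, and the coordinates are those of the match.
Pfkp (chr13:6580385-6580391, minus strand): tctctccactcCTTGTATttattctaaac
Pgk1 (chrX:106200148-106200154, plus strand): tccttgactttCTTGTATagattggcaca
Pkm (chr9:59679298-59679304, plus strand): ccactctccacCTTGTATtctgcagagtc
Slc16a1 (chr3:104656930-104656936, plus strand): tttgctgagaaCTTGTATcatgctttacg
Mxi1 (chr19:53375797-53375803, plus strand): taaaacttgaaCTTGTATttagttc
These genes encode the platelet isoform of phosphofructokinase (Pfkp), phosphoglycerate kinase (Pgk1), pyruvate kinase (Pkm), the monocarboxylate carrier MCT1 (Slc16a1) and a MYC antagonist of the MAX network (Mxi1). Their log2 fold changes, antagomir minus control on the log2(FPKM + 1) scale, were -0.15, -0.09, -0.09, -0.15 and 0.10, with a median of -0.09 against -0.03 over all tested genes with the site. None passed the test described below, and a match of these letters does not show that the microRNA binds there. Each site was read from the annotated transcript with the longest 3′ UTR, for Pgk1 at base 20 of 908. Whether the retinal mRNA of each gene used that transcript was not tested. The mRNA libraries do not measure the mature microRNA, so its block could not be checked in them.

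Promoter sequence, 250 bases before to 50 bases after the transcription start in RefSeq (GRCm38.p6), was found for 35 of the 36 names. The HIF core motif was searched as ACGTG and as GCGTG on both strands, and these letters may overlap when ACGTG is read on both strands of CACGTG, which is its own complement. The first form was present in 27 of 52 promoters of the listed genes (51.9%), against 4435 of 21262 promoters of protein-coding genes (20.9%). Either form was present in 41 of 52 (78.8%), against 10490 of 21262 (49.3%). The listed promoters also had a higher GC content, with a median of 63.2% against 56.3%, and how much of the difference this accounts for was not tested. Some genes, such as Aldoa, have overlapping promoter windows, so the same core can be counted more than once. By gene, 23 of 35 had ACGTG in a promoter and 32 had either form. The list includes genes chosen as known HIF targets, so these shares are no independent test of it. The 4 promoters below belong to the gene with the most ACGTG cores (Ldha), to the gene furthest apart between the groups (Aldoc), to a carrier gene whose groups did not overlap (Slc16a1) and to a HIF target that encodes a mitophagy receptor (Bnip3), with the cores in capitals. Ldha and Aldoc have more than 1 listed promoter, and the one with the most cores is shown.
Ldha (chr7:46845554-46845853, plus strand): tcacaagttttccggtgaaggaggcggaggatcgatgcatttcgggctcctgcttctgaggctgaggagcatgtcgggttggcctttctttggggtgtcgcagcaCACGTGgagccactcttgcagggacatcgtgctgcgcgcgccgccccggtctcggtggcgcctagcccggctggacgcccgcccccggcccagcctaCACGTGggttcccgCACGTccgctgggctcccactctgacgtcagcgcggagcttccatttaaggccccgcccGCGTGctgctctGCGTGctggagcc
Aldoc (chr11:78322823-78323122, plus strand): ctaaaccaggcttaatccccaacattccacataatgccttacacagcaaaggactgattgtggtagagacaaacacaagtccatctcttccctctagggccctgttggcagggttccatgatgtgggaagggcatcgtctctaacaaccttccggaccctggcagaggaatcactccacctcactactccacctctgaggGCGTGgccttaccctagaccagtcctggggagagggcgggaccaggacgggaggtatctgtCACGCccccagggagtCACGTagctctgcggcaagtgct
Slc16a1 (chr3:104638414-104638713, plus strand): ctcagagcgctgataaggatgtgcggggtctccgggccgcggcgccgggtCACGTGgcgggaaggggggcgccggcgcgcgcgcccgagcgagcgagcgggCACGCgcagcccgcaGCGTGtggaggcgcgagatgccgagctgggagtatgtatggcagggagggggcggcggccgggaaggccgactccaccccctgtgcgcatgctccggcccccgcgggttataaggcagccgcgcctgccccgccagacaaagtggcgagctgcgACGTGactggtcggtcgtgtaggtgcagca
Bnip3 (chr7:138909457-138909756, minus strand): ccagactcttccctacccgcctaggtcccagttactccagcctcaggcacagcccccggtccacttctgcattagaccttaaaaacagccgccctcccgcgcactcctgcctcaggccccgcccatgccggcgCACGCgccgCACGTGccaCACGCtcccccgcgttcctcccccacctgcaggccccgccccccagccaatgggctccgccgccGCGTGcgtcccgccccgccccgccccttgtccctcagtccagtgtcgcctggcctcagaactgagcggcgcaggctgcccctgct
A match is a description of the sequence and does not show that HIF was bound in these retinas.

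The libraries held between 13727596 and 16502352 reads on genes, rebuilt from the deposited FPKM values (fragments per kilobase of gene length, scaled to a total per library). That total was not the sum of the rebuilt reads. It was 14880371 against 15200313 reads in control replicate 1, and 14542651 against 14377164 in antagomir replicate 1. Rod markers summed to between 7983 and 8011 FPKM in antagomir libraries and to between 7908 and 9153 FPKM in control libraries, and none of these 6 genes was at 0. Transcripts of the lens, a neighbouring tissue, were present in 3 libraries that did not follow the groups. The 10 lens markers gave sums of 368, 6.40 and 1.90 FPKM in the antagomir libraries by replicate number, against 2.72, 833 and 321 FPKM in the control libraries. In antagomir replicate 3, Crybb2, Crygd, Crygs and Lim2 were at 0, and Lim2 was also at 0 in control replicate 1. The columns of 3 libraries are named as negative control, and those of the other 3 by an X with no explanation. Taking the X columns as the antagomir libraries is a reading on which every direction rests.

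No glycolysis or HIF-induced gene differed between antagomir and control retinas past the test. The whole table of genes with a mean of at least 0.5 FPKM was fitted with limma, and p-values were adjusted over all 17453 genes by the Benjamini-Hochberg method. Of the 37 genes, 36 were tested, and Car9, a carbonic anhydrase, was not, with 3, 4 and 4 reads in antagomir libraries and 0, 4 and 12 in control libraries. At an adjusted p under 0.05, 0 of 36 passed, with a background of 0.0% over all genes. At an unadjusted p under 0.05 there were 0 higher members and 2 lower ones (Aldoc and Ldhb), against backgrounds of 3.22% and 2.98%. The voom fit on rebuilt reads gave 0 at an adjusted p under 0.05 and 4 at an unadjusted p under 0.05 in either direction, against 6.35% of all genes in that fit. In all, 13 were higher and 23 lower, and the median log2 fold change was -0.05, against 0.001 over all genes tested. This median turned to 0.02 without antagomir replicate 1. With 3 libraries in each group, the 95% intervals of single genes set what could be seen, and that of Eno1, for example, spanned ratios of 0.838 to 1.18.

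**Figure D1:**
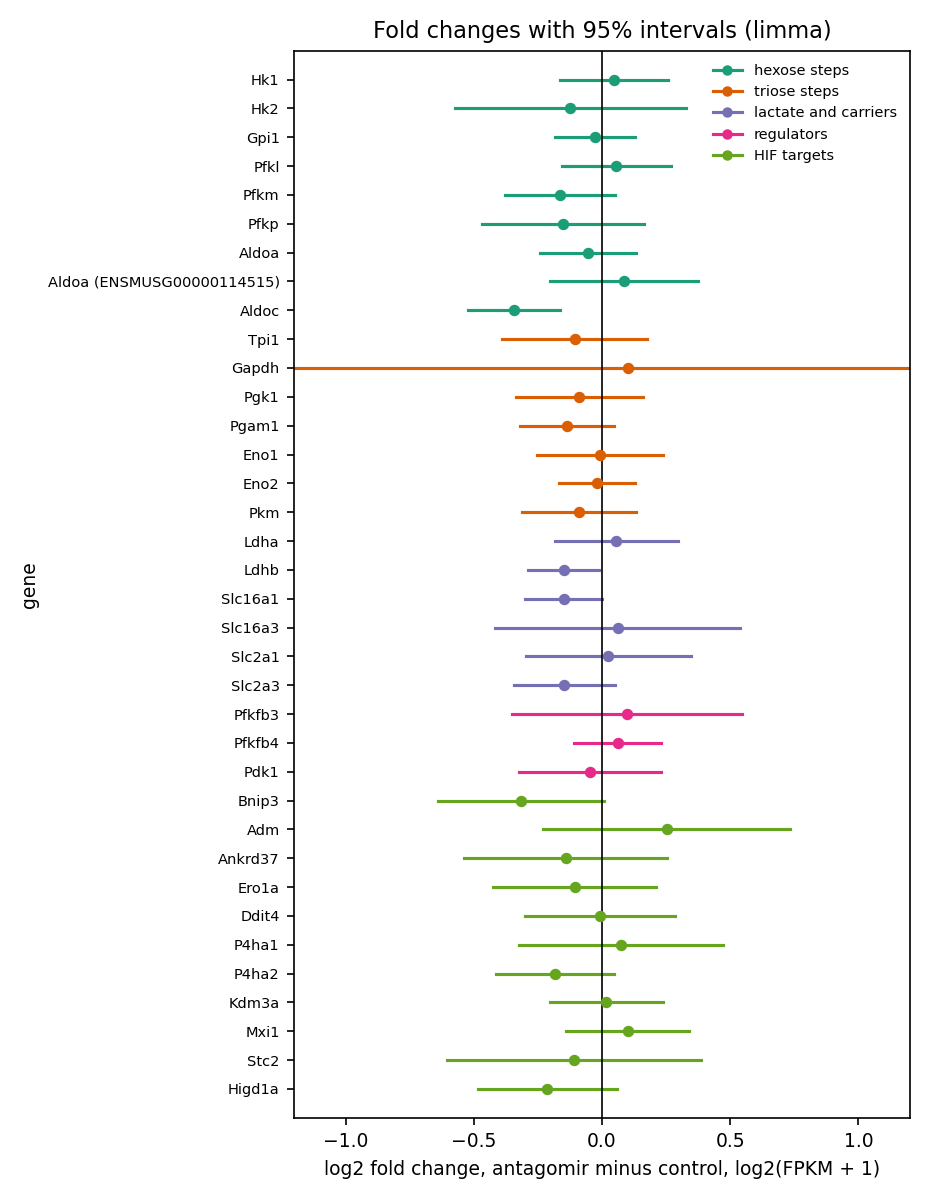
Log2 fold change (antagomir minus control, horizontal axis, on the log2(FPKM + 1) scale) of the 36 tested genes, with 95% intervals from limma as lines and colours for the role of each gene. Aldoc, at -0.34, lies furthest below 0, and the interval of Gapdh runs past both ends of the axis.

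In 4 genes every antagomir library lay below every control library, and in 0 every antagomir library lay above, where the backgrounds over all genes tested were 5.87% and 6.16%. The 4 encode aldolase C, lactate dehydrogenase B, the carrier MCT1 and a collagen prolyl hydroxylase subunit. Aldoc (ENSMUSG00000017390, chromosome 11, 78322968 to 78327781 in GRCm38, plus strand) encodes the aldolase isoform of brain and glia. It was at 87.6, 77.4 and 76.7 FPKM in antagomir libraries and at 95.3, 108 and 103 FPKM in control libraries. The highest antagomir library was thus below the lowest control library. Aldoc averaged 80.6 ± 6.08 FPKM in antagomir retinas and 102 ± 6.57 FPKM in control retinas (SD, n = 3 each), with a log2 fold change of -0.34 (SE 0.076) and a ratio of 0.789 (95% interval 0.697 to 0.894). It did not pass (adjusted p = 0.724 by limma, 0.539 to 0.99 over the alternatives). Fewer cells of a type and less RNA per cell cannot be told apart in bulk retina. The 5 Müller glia markers, of which 2 were higher and 3 lower and none was at 0, summed to between 514 and 594 FPKM in antagomir libraries and to between 577 and 720 FPKM in control libraries. Control replicate 2 was the highest for both Aldoc and these markers, and the part of the markers in the Aldoc values was not tested. The pericyte markers, 3 of 3 tested lower and none at 0, did not overlap between the groups, with sums of 18.3 to 24.6 FPKM in antagomir libraries and 26.0 to 37.5 FPKM in control libraries. The ganglion cell markers, 5 of 5 lower and none at 0, summed to between 193 and 236 FPKM in antagomir libraries and to between 211 and 286 FPKM in control libraries. The part of either list in the values of the 4 genes was not tested. Without the 3 libraries with lens transcripts, which leaves 2 libraries against 1, the log2 fold change of Aldoc was -0.30.

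Ldhb (ENSMUSG00000030246, chromosome 6, 142490249 to 142507957, minus strand) encodes the lactate dehydrogenase subunit that favours turning lactate back into pyruvate. It was at 68.5, 66.8 and 64.7 FPKM in antagomir libraries and at 70.2, 78.5 and 73.6 FPKM in control libraries. The gap between the nearest libraries of the groups was small beside the spread of the controls. Its ratio was 0.902 (95% interval 0.819 to 0.992; adjusted p = 0.801 by limma). Slc16a1 (ENSMUSG00000032902, chromosome 3, 104638668 to 104658462, plus strand) encodes MCT1, a carrier of lactate and pyruvate found on photoreceptors and other retinal cells. It was at 61.7, 54.9 and 59.2 FPKM in antagomir libraries and at 68.1, 64.8 and 62.3 FPKM in control libraries. Antagomir replicate 1 and control replicate 3 were nearly level. Its ratio was 0.902 (95% interval 0.813 to 1.00; adjusted p = 0.801 by limma). P4ha2, which encodes a catalytic subunit of prolyl 4-hydroxylase in collagen synthesis, was at 3.33, 3.30 and 3.35 FPKM in antagomir libraries and at 4.56, 3.59 and 3.65 FPKM in control libraries. Its controls were spread by control replicate 1, and the log2 fold change of -0.18 became -0.09 without that library.

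**Figure D2:**
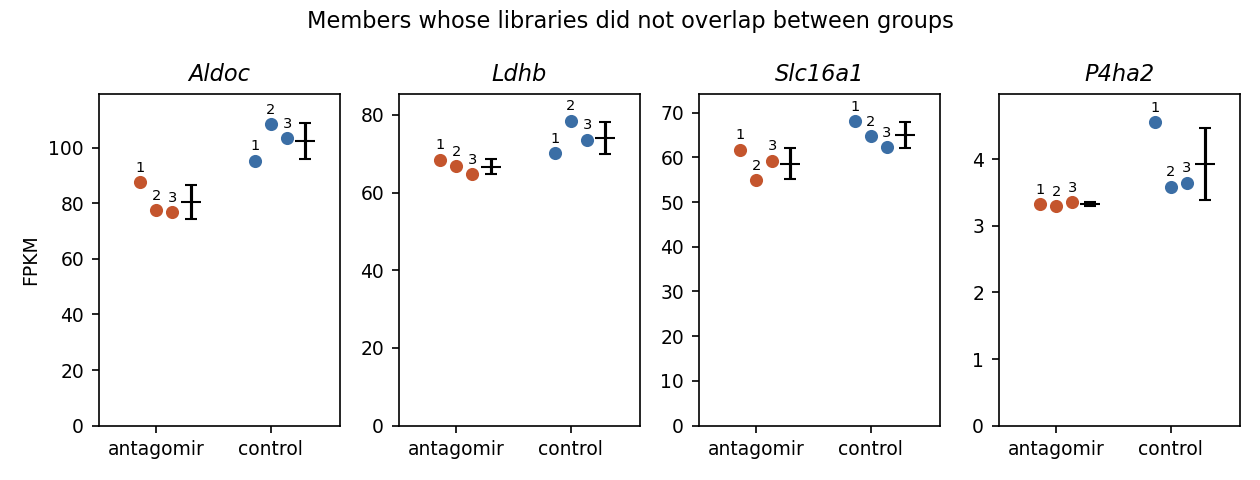
FPKM (vertical axis, from 0) of Aldoc, Ldhb, Slc16a1 and P4ha2 in each antagomir and control library, with points numbered by replicate and the mean ± SD beside them. In each panel all antagomir points lie below all control points, with the widest gap for Aldoc.

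Among the enzymes of the hexose steps, which phosphorylate glucose and split the sugar, 3 lay above 0 and 6 below it, and their median log2 fold change was -0.05. Hk1 encodes the hexokinase of most tissues and was at 71.6, 90.3 and 77.5 FPKM in antagomir libraries and at 80.1, 74.8 and 75.9 FPKM in control libraries. Hk2 encodes the inducible hexokinase, which photoreceptors use, and was at 20.3, 32.4 and 18.9 FPKM in antagomir libraries and at 23.8, 27.1 and 25.2 FPKM in control libraries. Both were highest in antagomir replicate 2, and the groups overlapped. The ratio of Hk2 between the groups was 0.919 with a 95% interval of 0.673 to 1.25. Gpi1, which encodes glucose-6-phosphate isomerase, varied little, with 103 ± 6.99 FPKM in antagomir and 105 ± 3.39 FPKM in control retinas (SD, n = 3 each). Phosphofructokinase, the committed step of glycolysis, is encoded by 3 genes named for liver (Pfkl), muscle (Pfkm) and platelet (Pfkp). Pfkp was at 105, 99.4 and 109 FPKM in antagomir libraries and at 135, 93.7 and 124 FPKM in control libraries. Its controls held both the highest and the lowest library. Pfkl was at 44.1, 53.2 and 50.1 FPKM in antagomir libraries and at 51.7, 44.8 and 45.1 FPKM in control libraries. Pfkm was at 34.4, 32.6 and 32.1 FPKM in antagomir libraries and at 33.1, 42.3 and 36.6 FPKM in control libraries. Control replicates 2 and 3 were its highest libraries, and the log2 fold change of -0.17 became -0.07 without control replicate 2. Aldoa, the aldolase of muscle and most cells, was the highest of the list at 578, 624 and 600.3 FPKM in antagomir libraries and 674, 600.1 and 599 FPKM in control libraries. The second gene named Aldoa (ENSMUSG00000114515, chromosome 7, 126800790 to 126809108, minus strand, beside the first) stood at 19.8 ± 3.42 FPKM in antagomir and 18.4 ± 0.662 FPKM in control retinas.

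Of the genes of the triose steps, which yield the ATP and pyruvate of the pathway, 1 was higher and 6 lower, with a median of -0.09. Pkm, which encodes pyruvate kinase, was at 486, 515 and 519.7 FPKM in antagomir libraries and at 607, 494 and 521 FPKM in control libraries. Eno1, the enolase of most cells, was at 452, 461 and 498 FPKM in antagomir libraries and at 545, 442 and 437 FPKM in control libraries. In both genes control replicate 1 stood above the other 5 libraries. The same library was the highest for Tpi1 (269 FPKM, against 195 to 233 in the others), Pgk1 (312 against 235 to 274) and Pgam1 (259 against 206 to 227), which encode triosephosphate isomerase, phosphoglycerate kinase and phosphoglycerate mutase. Rod markers (9153 FPKM summed, against 7908 to 8011 in the other libraries, 3 of 6 higher in antagomir retinas and none at 0) and red blood cell markers (220.1 FPKM, against 21.4 to 84.7, 0 of 5 higher and none at 0) were also highest in control replicate 1, and their part in these values was not tested. Eno2, the neuronal enolase, had its lowest value there, with 111, 112 and 112 FPKM in antagomir libraries and 105, 116 and 119.5 FPKM in control libraries.

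Gapdh, which encodes glyceraldehyde-3-phosphate dehydrogenase and is often used as a reference gene, was singled out after its values were seen because it fell into separate levels (ENSMUSG00000057666, chromosome 6, 125161715 to 125166467, minus strand). It was at 9.83, 11.6 and 60.9 FPKM in antagomir libraries and at 9.35, 58.3 and 10.2 FPKM in control libraries. Antagomir replicate 3 and control replicate 2 were high, the other 4 were low, and the split did not follow the groups. The endothelial markers, 4 of 5 higher in antagomir retinas and none at 0, were split in the same way, with 38.1 FPKM summed in antagomir replicate 3 and 41.7 FPKM in control replicate 2, against 17.3 to 25.0 in the other 4 libraries. Their part in the Gapdh values was not tested. The log2 fold change was 0.10 (SE 0.88), with a 95% interval of the ratio of 0.251 to 4.60. Leaving out antagomir replicate 3 turned it to -0.70, and leaving out control replicate 2 gave 0.92. It lay between -0.34 and 0.56 when any other single library was left out, and it was -0.54 with a term for high or low Xist. The mouse genome holds many near-identical processed copies of Gapdh. In GENCODE M21, transcripts of 76 other genes matched its coding sequence at 95% identity or more over at least 300 bases. Together these copies held 1088, 1204 and 1193 reads in antagomir libraries and 1316, 1076 and 1005 in control libraries, while Gapdh itself held 591, 782 and 4148 reads in antagomir libraries and 575, 3659 and 580 in control libraries. The copies were thus level across the libraries in which Gapdh was not. How the authors' counting treated reads that match several places is not given in the sources used here, so the level of Gapdh is uncertain, both against the other enzymes and between libraries. Of the other members, 9 also had such copies, which held at most 3.03% as many reads as the member itself (Eno1, mainly through Eno1b).

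**Figure D3:**
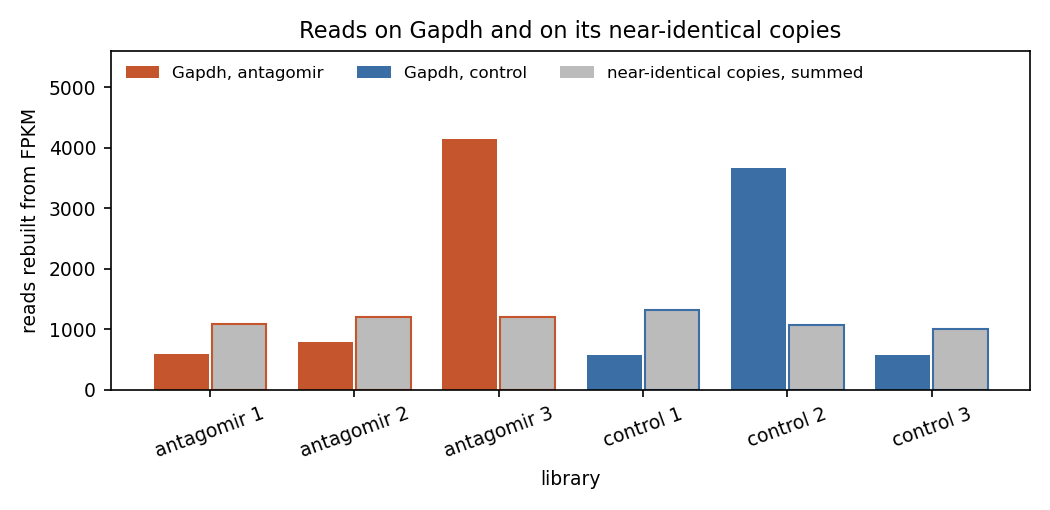
Reads rebuilt from FPKM (vertical axis, from 0) on Gapdh (coloured bars) and summed over its 76 near-identical copies (grey bars) in each library. Gapdh stands at 4148 in antagomir replicate 3 and 3659 in control replicate 2 and between 575 and 782 in the others, while the copies stay between 1005 and 1316.

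At the lactate step, Ldha, which encodes the subunit that favours making lactate, was at 362, 410.1 and 457 FPKM in antagomir libraries and at 421, 373 and 385 FPKM in control libraries. The antagomir libraries were both the lowest and the highest, and the ratio was 1.04 (95% interval 0.879 to 1.23; adjusted p = 0.944 by limma). Slc16a3 encodes MCT4, a HIF-induced lactate exporter, and was at 7.93, 12.9 and 13.03 FPKM in antagomir libraries and at 12.9, 9.38 and 9.60 FPKM in control libraries. Slc2a1 encodes the glucose carrier GLUT1 of photoreceptors, glia, pigment epithelium and vessels, and was at 52.5, 56.7 and 74.8 FPKM in antagomir libraries and at 57.7, 65.6 and 55.9 FPKM in control libraries. The high Slc2a1 value of antagomir replicate 3 and the second highest, of control replicate 2, came from the libraries with the most endothelial marker transcripts (38.1 and 41.7 FPKM summed over 5 markers, against 17.3 to 25.0 in the other 4, with 4 markers higher in antagomir retinas and none at 0), whose part was not tested. Slc2a3, which encodes the neuronal glucose carrier GLUT3, was at 9.80, 11.3 and 12.2 FPKM in antagomir libraries and at 12.7, 12.5 and 11.9 FPKM in control libraries, so only antagomir replicate 3 reached the controls.

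Of the regulators, Pdk1 was the most abundant and encodes a kinase that shuts pyruvate out of the mitochondrial pyruvate dehydrogenase complex. It was at 7.43, 8.81 and 9.56 FPKM in antagomir libraries and at 10.3, 8.30 and 8.19 FPKM in control libraries. Pfkfb3 and Pfkfb4 encode enzymes that set the level of fructose 2,6-bisphosphate, an activator of phosphofructokinase. Pfkfb3 was at 3.50, 5.91 and 6.50 FPKM in antagomir libraries and at 4.75, 4.48 and 5.05 FPKM in control libraries. Antagomir libraries lay on both sides of the controls for Pfkfb3. Pfkfb4 stayed between 4.75 and 5.04 FPKM in antagomir libraries and between 4.38 and 4.89 FPKM in control libraries.

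Among the HIF-induced genes outside glycolysis, 4 were higher and 7 lower, with a median of -0.11. Ddit4, which encodes the mTOR inhibitor REDD1 and was the most abundant of them, was at 80.3, 100.3 and 71.4 FPKM in antagomir libraries and at 78.1, 87.8 and 85.6 FPKM in control libraries. Bnip3, a mitophagy receptor gene (ENSMUSG00000078566, chromosome 7, 138890836 to 138909519, minus strand), was at 37.3, 39.04 and 39.96 FPKM in antagomir libraries and at 59.6, 39.7 and 48.3 FPKM in control libraries. The antagomir libraries lay close together and the lowest control reached them. The log2 fold change of Bnip3 was -0.32 (SE 0.14; adjusted p = 0.801 by limma), and it was -0.17 without control replicate 1. Higd1a, which encodes a hypoxia-induced mitochondrial protein, also had antagomir libraries close together and its highest value in control replicate 1, with 27.2, 27.4 and 27.4 FPKM in antagomir libraries and 37.5, 26.7 and 32.3 FPKM in control libraries. P4ha1, the other prolyl hydroxylase subunit gene, was at 10.8, 15.6 and 18.2 FPKM in antagomir libraries and at 13.3, 14.3 and 13.7 FPKM in control libraries. Antagomir replicate 1 was the lowest of the 6 libraries for P4ha1, and also for Ankrd37 (9.70 FPKM, against 12.3 to 16.2), Ero1a (10.3 against 12.3 to 15.4), Kdm3a (15.3 against 16.1 to 19.1) and Mxi1 (12.4 against 13.1 to 16.4). These encode an ankyrin repeat protein, an oxidase of protein folding, a histone demethylase and a MYC antagonist. Adm, the vasodilator adrenomedullin gene, averaged 5.36 ± 1.34 FPKM in antagomir and 4.32 ± 1.06 FPKM in control retinas, and Stc2, which encodes a secreted glycoprotein, 1.97 ± 0.623 and 2.21 ± 0.693 FPKM (SD, n = 3 each).

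The libraries differed more clearly than the groups. Antagomir replicate 1 was the lowest of the 6 for 21 of 36 tested members (58.3%), against 13.9% of all genes tested, and it was the highest for 0. Control replicate 1 was the highest for 14 of 36 (38.9%), against 16.5% of all genes tested. The FPKM sum was also largest there, 259086 against 246082 to 251574 in the other libraries. Its part in this count was not tested. The median deviation of the members from their own means was -0.14 in antagomir replicate 1, against 0.02 and -0.002 in antagomir replicates 2 and 3. It was 0.07, -0.04 and 0.01 in control replicates 1, 2 and 3. By role, antagomir replicate 1 was lowest on the HIF targets (-0.21), and control replicate 1 highest on the triose steps (0.21). Over all genes tested these medians were within 0.004 of 0 in every library. In antagomir replicate 1 the 5 pigment epithelium markers were the highest of the 6 libraries (85.7 FPKM summed, against 32.03 to 69.2, with 3 of 4 tested markers higher in antagomir retinas and none at 0), and lens markers were at 368 FPKM. Lens markers were at 833 and 321 FPKM in control replicates 2 and 3, where the median deviations of the members were -0.04 and 0.01. The part of either tissue in the values of any library was not tested.

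**Figure D4:**
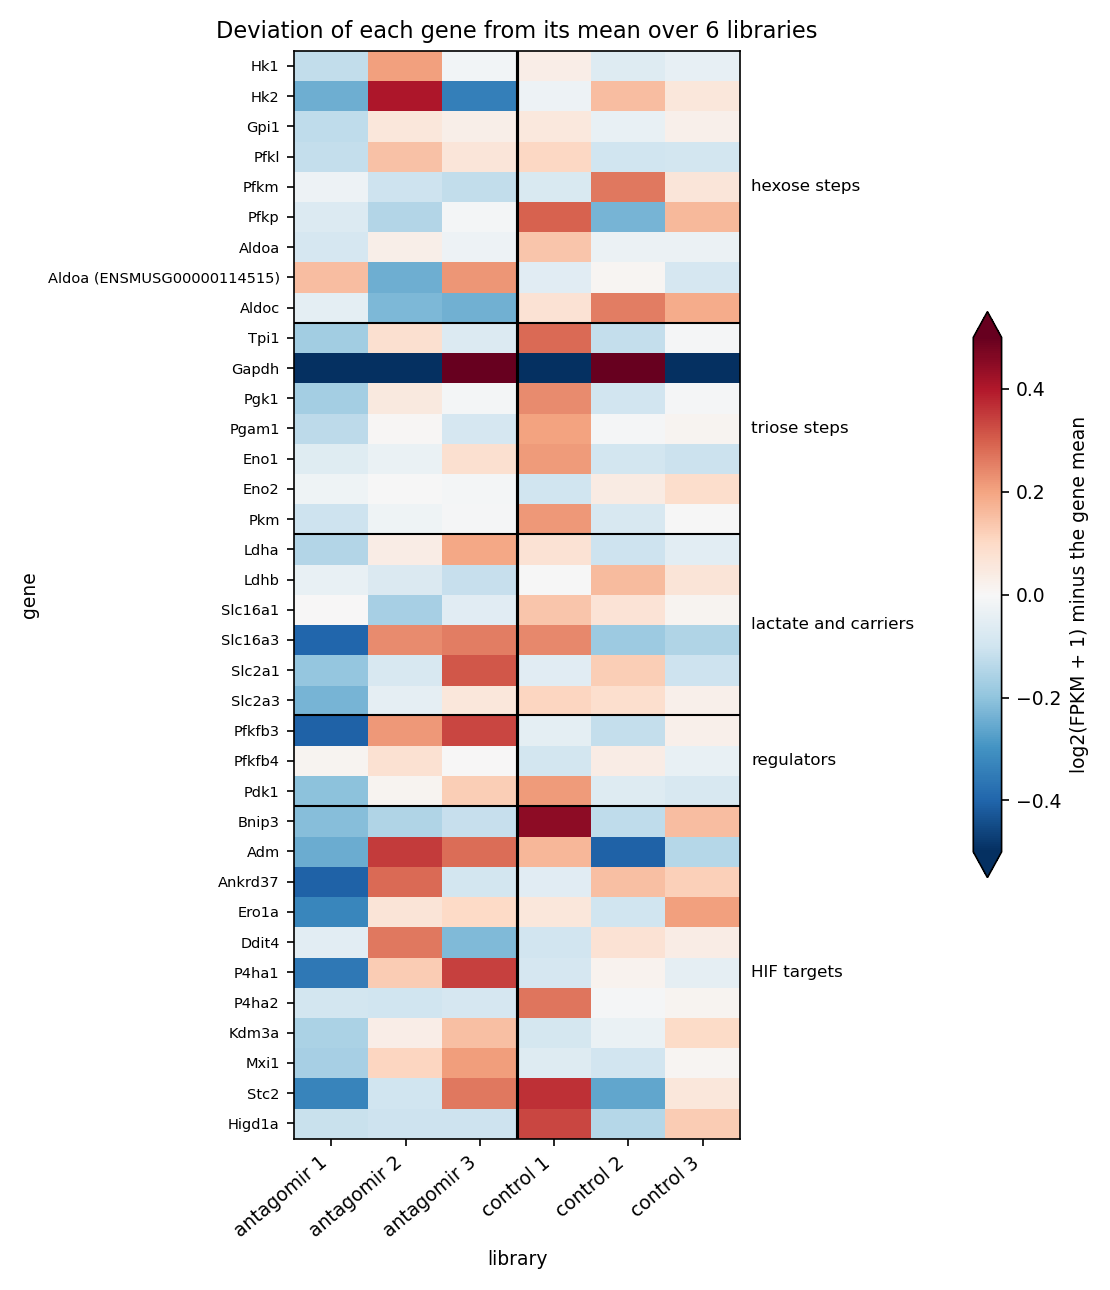
Deviation of log2(FPKM + 1) from the mean over the 6 libraries (colour, red above and blue below) for the 36 tested genes (rows, by role) in each antagomir and control library (columns). Antagomir replicate 1 is mostly blue. Control replicate 1 is red through the triose steps except for Eno2 and Gapdh, which are blue there. Gapdh goes past the colour range, which ends at 0.5.

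Isoform pairs were compared as ratios within each library. For each of 11 pairs, the difference of mean log2 ratios of FPKM + 1 was tested by an exact two-sided permutation test, whose smallest p with 3 against 3 libraries is 0.1. The pseudocount of 1 FPKM shrinks the tested ratios of low genes, and the ratios printed here are of FPKM without it. On that scale, which is per length, Hk1 exceeded Hk2 in every library, by 3.53, 2.79 and 4.10 times in antagomir libraries and by 3.37, 2.76 and 3.01 times in control libraries. Ldha exceeded Ldhb by 5.28, 6.14 and 7.07 times in antagomir libraries and by 6.0, 4.75 and 5.23 times in control libraries. Ldha thus made up 85.9% ± 1.8 of the summed level of both genes in antagomir retinas and 84.1% ± 1.6 in control retinas (SD, n = 3 each). Among the phosphofructokinase genes the order Pfkp, Pfkl, Pfkm held in every library. Pfkp made up 56.0% ± 2.0 of their sum in antagomir retinas and 57.8% ± 5.2 in control retinas (SD, n = 3 each). These shares depend on the deposited gene lengths, 13401 bases for Pfkp, 6675 for Pfkl and 3340 for Pfkm. In rebuilt reads Pfkp stood further above Pfkl and Pfkm, with 20491 against 4282 and 1671 in antagomir replicate 1. Pfkm was nearest to Pfkl in control replicate 2, where Pfkl was 1.06 times higher, against 1.23 to 1.64 times in the other 5. Aldoa exceeded Aldoc by 6.60, 8.06 and 7.83 times in antagomir libraries and by 7.07, 5.54 and 5.80 times in control libraries. Eno1 exceeded Eno2 by 3.66 to 5.21 times, Slc2a1 exceeded Slc2a3 by 4.55 to 6.13 times, and Slc16a1 exceeded Slc16a3 by 4.27 to 7.79 times. P4ha1 exceeded P4ha2 by 2.91 to 5.42 times. For Pfkfb3 and Pfkfb4 the order itself varied in FPKM, with ratios of 0.73 to 1.37 in antagomir libraries and 0.917 to 1.10 in control libraries. Their deposited gene lengths were 7561 and 4875 bases, and in rebuilt reads Pfkfb3 was the higher in every library. Pfkfb3 held 385, 727 and 810 reads in antagomir libraries and 534, 515 and 528 in control libraries. Pfkfb4 held 340, 400 and 382 reads in antagomir libraries and 318, 362 and 310 in control libraries. No pair separated the groups: all 11 overlapped, the difference in mean log2 ratio was 0.29 for Aldoa to Aldoc (exact permutation p = 0.2, adjusted 0.629 over the 11 pairs) and 0.26 for P4ha1 to P4ha2 (exact permutation p = 0.4), and the Ldha to Ldhb and Slc2a1 to Slc2a3 ratios also had exact p = 0.2. With a pseudocount of 0.1 FPKM the P4ha1 to P4ha2 difference was 0.30 and the Aldoa to Aldoc difference 0.29.

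**Figure D5:**
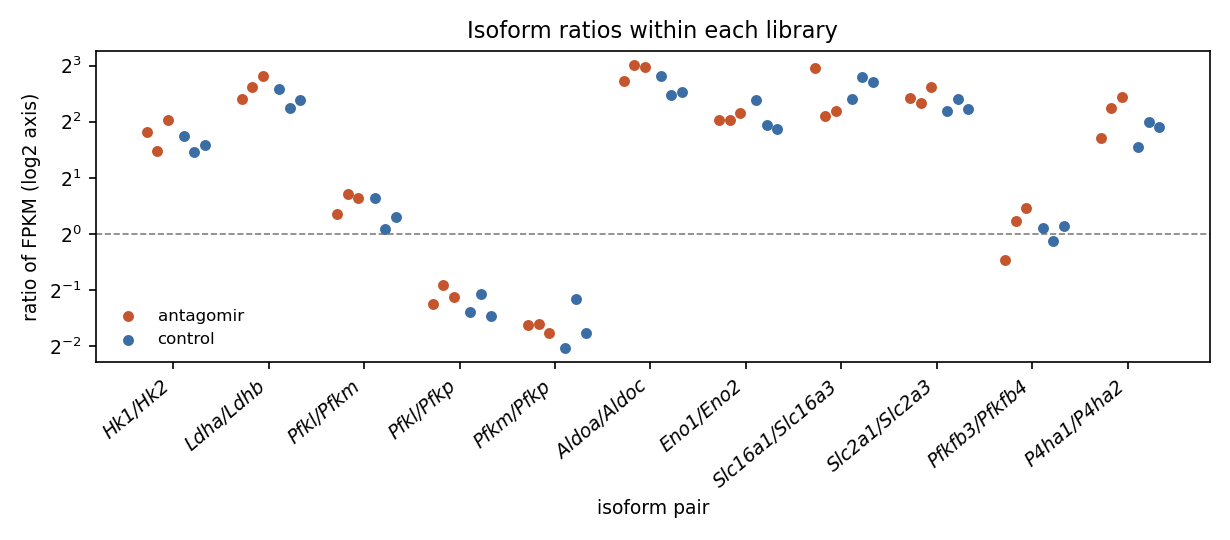
Ratio of the FPKM of 2 isoform genes (vertical log2 axis, dashed line at a ratio of 1) within each antagomir and control library for 11 pairs. The groups overlap for every pair, and only Pfkfb3 to Pfkfb4 crosses the line.

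Other genes of the same pathways were read from the same fit, from lists written with earlier results known. None of the 5 lists had a gene at an adjusted p under 0.05. Of 17 tested among 25 other glycolysis genes, 12 were higher and 5 lower (median 0.05), with 2 higher and 0 lower at an unadjusted p under 0.05 (backgrounds 3.22% and 2.98%). Eno3, the muscle enolase gene, was at 26.4, 24.5 and 24.8 FPKM in antagomir libraries and at 22.4, 18.9 and 18.5 FPKM in control libraries (log2 fold change 0.33, SE 0.081; adjusted p = 0.801 by limma). G6pc3, a glucose-6-phosphatase gene, was at 20.5, 19.9 and 17.9 FPKM in antagomir libraries and at 16.4, 16.9 and 15.2 FPKM in control libraries. Both lay above all controls in every antagomir library, opposite to the direction of Aldoc. They were the 2 of 17 that separated this way, against a background of 6.16%, and 0 separated the other way (background 5.87%). Among 12 tested genes of pyruvate entry into mitochondria, 4 were higher and 8 lower (median -0.06), with 0 at an unadjusted p under 0.05, and in 5 the antagomir libraries lay below all controls (background 5.87%), among them the pyruvate carboxylase gene Pcx (4.73 ± 0.721 FPKM in antagomir and 5.72 ± 0.251 FPKM in control retinas) and Pdk2 (19.2 ± 0.575 and 20.8 ± 0.588 FPKM; SD, n = 3 each). Other glucose and lactate carriers (9 tested, 5 higher and 4 lower, median 0.02) and pentose phosphate enzymes (8 tested, 4 higher and 4 lower, median 0.01) showed no gene at an unadjusted p under 0.05. Bsg, the MCT chaperone basigin, was at 443 ± 13.5 FPKM in antagomir and 438 ± 59.8 FPKM in control retinas.

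Of 37 tested other HIF targets, 11 were higher and 26 lower (median -0.07), with 2 higher and 1 lower at an unadjusted p under 0.05 (backgrounds 3.22% and 2.98%), a share near the background. Hmox1, which encodes the haem-degrading oxygenase, was at 5.54, 3.51 and 5.82 FPKM in antagomir libraries and at 13.8, 6.24 and 10.5 FPKM in control libraries. All antagomir libraries were lower, and the log2 fold change was -0.87 (SE 0.28; adjusted p = 0.801 by limma, 0.66 to 0.99 over the alternatives). Red blood cell markers, 5 of 5 lower in antagomir retinas and none at 0, summed to between 21.4 and 61.2 FPKM in antagomir libraries and to between 66.4 and 220.1 FPKM in control libraries, and their part in the Hmox1 values was not tested. Ndrg1, a hypoxia-induced differentiation gene, was at 47.2, 44.8 and 59.5 FPKM in antagomir libraries and at 40.4, 41.5 and 38.6 FPKM in control libraries. Ndrg1 was thus higher in every antagomir library while most of its list was lower. Of the 37 genes, 2 were higher without overlap and 4 lower, against backgrounds of 6.16% and 5.87%. Mif, a cytokine gene, was at 199 ± 4.72 FPKM in antagomir and 226 ± 24.7 FPKM in control retinas (SD, n = 3 each). Control replicate 1 was the highest library for 19 of these 37 genes (51.4%), against 16.5% of all genes tested. It was also the highest for 71.4% of the triose-step genes. The same library was highest for 41.7% of the pyruvate entry genes, 22.2% of the other carriers and 0.0% of the pentose phosphate enzymes. Among the 17 other glycolysis genes it was highest for 1 (5.88%). There antagomir replicate 1 was highest for 7 (41.2%, against 14.5% of all genes tested).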

How the data were processed

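Retina RNA was extracted with TRNzol and sequenced from SMARTER mRNA-Seq libraries, per the labels' protocols. The authors deposited FPKM values with gene lengths. Genome builds GRCm38 and mm10 are named, per the submitters' processing notes. For the aligner and counter, and for whether strand was used, the answer is not given in the sources used here. Multiplying FPKM by gene length and dividing by the step of 1 read returned whole numbers (tolerance 0.01) for 100% of values, and these served as read counts for depth. Groups came from the sample titles. Whether each library is a separate animal is not stated. A p-value here therefore covers only the spread among these libraries, which may be technical.

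Genes with a mean of at least 0.5 FPKM were tested with limma 3.58.1 (R 4.3.3; lmFit, eBayes with a trend) on log2(FPKM + 1), two-sided, with Benjamini-Hochberg adjustment over all genes and a threshold of 0.05. Fold changes on this scale understate those of low genes. Exact permutation tests used scipy 1.17.1. Copies were found with blastn. Values in every library are given for isoform pairs, the most abundant gene of each role and genes whose groups did not overlap or with an unadjusted p under 0.05, and of wider lists at most 3 genes are named. The members and lists were chosen with earlier results of these data known. Alternatives were other pseudocounts, filters and scalings, voom, a replicate block and leaving out libraries.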

Additional observations from a re-analysis of the deposited data

How the results depend on the processing

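No member and no gene of the wider lists passed an adjusted p of 0.05 under any of the 16 alternatives. Over all genes the count was 0 in 13 of them, 1 with voom on rebuilt reads and between 0 and 2 when leaving out 1 library. The median log2 fold change of the members lay between -0.103 and 0.022 when leaving out 1 library, being above 0 only without antagomir replicate 1, and adding a lens score to the fit gave -0.11. The number of members lower without overlap was 7 with quantile normalization (background 5.83%) and 17 without the 3 libraries with lens transcripts (background 33.5%), where 9 were higher (background 32.2%). Leaving out 1 library gave 5 to 9 lower (background 9.29% to 12.3%) and 0 to 4 higher (9.83% to 12.2%), where fewer libraries make separation easier. The Pfkm to Pfkp difference (-0.01) was -0.20 to 0.23 when leaving out 1 library and 0.34 without the lens libraries. The Eno1 to Eno2 difference (0.01) was -0.084 to 0.17 and -0.28 in the same settings, and the Pfkfb3 to Pfkfb4 difference (0.04) was -0.12 to 0.25 when leaving out 1 library. The other 8 ratios kept their direction. The cause of these changes was not tested. Same-numbered libraries did not deviate together (correlations of -0.19, -0.10 and -0.14). The replicate block left 0 members called and the median at -0.05, with 1 member at an unadjusted p under 0.05 (4.9% of all genes in that fit). The planned quasi-likelihood count test was not run. Settings with the lens score, the Xist term, without lens libraries and for overlap were chosen after seeing the data. Depth limited Car9 most, with 27 reads in all.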
